A study of Mus musculus with 12 samples.

Results

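The genes described here are the feedback regulators of the ERK mitogen-activated protein kinase pathway: the phosphatase Dusp6 with its relatives Dusp4 and Dusp5, the inhibitors Spry1, Spry2, Spry4, Spred1 and Spred2, and the transcription factors Etv4 and Etv5. A probe set was taken as a member when the platform annotation gave it 1 symbol equal to 1 of these 10 names. Of the 10 genes 8 had such a probe set, 14 probe sets in all among 22626, and these 8 stood among 12393 genes named in this way. The expression of Dusp4 and Dusp5 was not analysed here.

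The data came from 12 Affymetrix arrays of total RNA from BW5147, a mouse thymic lymphoma line, in 6 groups of 2 arrays that the labels number 1 and 2. All groups were cultured in the same medium with fetal calf serum and differed by what the cells received for 8 h. They were left unstimulated or received 100 ng/ml of dexamethasone (Dex), which activates the glucocorticoid receptor, 100 U/ml of the cytokine IL-9, which signals through Il9r, or 100 U/ml of CCL1, a chemokine that binds Ccr8. In the other two groups IL-9 or CCL1 was given together with Dex. The labels do not say that the arrays of a group came from separate cultures, so p-values measure the spread between arrays, which may be technical, and all values belong to 1 cell line. The array CCL1 2 was of another array type and its values came in a separate table, so the main tests used the other 11 arrays and CCL1 without Dex rested on 1 array, CCL1 1. There CCL1 1 was set against both arrays of unstimulated cells or of IL-9. CCL1 without Dex, and the averages that use CCL1 1, thus contain part of any difference between array numbers. Fits with CCL1 2 added, and fits of the arrays numbered 2 alone, include it and so mix both tables and array types.

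Arrays went against their labels in 1 respect that touches every comparison with the groups labelled without Dex. Of 15 known targets of the glucocorticoid receptor 9 passed the filter on low signals, and their mean log2 level, centred on the 11 arrays, was 0.02 to 0.27 in the 6 arrays labelled with Dex. It was 0.30, 0.25 and 0.16 in the arrays labelled unstimulated 1, IL-9 1 and CCL1 1, and -0.87, -0.92 and -0.97 in unstimulated 2, IL-9 2 and CCL1 2. Group names below are those of the labels. For the members that passed the filter, differences are also shown within each array number, and for other genes this was done only in part. The T lineage markers Ptprc (median signal 2667 over the arrays), Thy1 (1011) and Cd3g (593) were measured well above the array medians of 14.5 to 17.5, whereas the median signals of Cd4, Cd8a and Cd2 were 0.974, 4.36 and 2.39. Of 19 markers of B, myeloid, erythroid and fibroblast cells none exceeded a signal of 24.6 in any array.

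Growth factor, cytokine and antigen receptors drive a kinase cascade from Ras through Raf and MEK to ERK, which enters the nucleus and switches on early genes. Some of these genes feed back. DUSP6 is a cytoplasmic phosphatase that removes the activating phosphates from ERK, DUSP4 and DUSP5 do so in the nucleus, Sprouty and Spred proteins act higher up on Ras and Raf, and ETV4 and ETV5 are transcription factors of the ETS family whose genes are induced by ERK signalling. In thymocytes and T cells the strength and length of the ERK signal help to set selection, growth and survival, and transcripts of these genes are commonly read as an output of the pathway.

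The 250 bases before the transcription start are shown for the 3 members that were measured clearly above background, Dusp6, Spred2 and Etv5, because ETS factors are a known route from ERK to its target genes. The sequences are RefSeq's for assembly GRCm38.p6, written 5′ to 3′ on the strand of the gene, and capitals mark the letters CTTCCG, which are the ETS core CGGAAG on the opposite strand. The windows are chr10:99262981-99263230 on the plus strand for Dusp6, chr11:19924192-19924441 on the plus strand for Spred2 and chr16:22439571-22439820 on the minus strand for Etv5.
Dusp6: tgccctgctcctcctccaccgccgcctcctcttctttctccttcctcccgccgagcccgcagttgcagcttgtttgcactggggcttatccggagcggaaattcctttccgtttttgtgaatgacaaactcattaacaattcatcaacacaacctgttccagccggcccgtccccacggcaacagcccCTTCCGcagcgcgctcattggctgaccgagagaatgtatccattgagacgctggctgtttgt
Spred2: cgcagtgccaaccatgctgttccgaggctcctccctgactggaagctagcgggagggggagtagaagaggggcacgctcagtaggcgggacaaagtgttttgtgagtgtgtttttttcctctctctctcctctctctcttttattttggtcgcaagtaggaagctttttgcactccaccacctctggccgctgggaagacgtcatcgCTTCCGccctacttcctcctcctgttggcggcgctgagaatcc
Etv5: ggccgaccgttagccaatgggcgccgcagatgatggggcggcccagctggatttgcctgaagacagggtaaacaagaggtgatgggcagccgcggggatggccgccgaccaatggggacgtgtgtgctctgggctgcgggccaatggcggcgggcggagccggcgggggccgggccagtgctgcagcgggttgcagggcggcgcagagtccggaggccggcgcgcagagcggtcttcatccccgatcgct
The match lay 62 to 57 bases before the start in Dusp6 and 43 to 38 bases before it in Spred2, and neither this window of Etv5 nor that of its other listed start held it. Searched on both strands, CGGAAG was in 3 of the 8 listed windows, which belong to 7 members and include that of Dusp5 (the 3 were Dusp6, Spred2 and Spred1), against 13.6% of 32851 promoters of the same length. The GC box GGGCGG was in 5 of the 8 windows and in 32.7% of all promoters, and in Spred2 it overlapped the ETS core. The cyclic AMP element TGACGTCA, the AP-1 letters TGANTCA and a palindromic glucocorticoid element were in none of the 8, against 1.55%, 6.75% and 0.387% of all promoters. A match describes letters only.

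Dusp6 stood out among the members. Its signal, in the linear arbitrary units of the MAS5 algorithm, was 204 and 175 in unstimulated cells, 578 and 716 with CCL1, and 141 and 143 with IL-9 (arrays 1 and 2). In cells given Dex it was 183 and 209 with Dex alone, 509 and 622 with Dex and CCL1, and 148 and 134 with Dex and IL-9. All 4 arrays with CCL1 lay above the other 8, and all 4 arrays with IL-9 lay below the 4 arrays with neither factor. The first pattern was shown by 79 of 13575 probe sets (0.582%) and the second by 513 (3.78%). Without the array CCL1 2, the 3 others with CCL1 were still above the remaining 8, as in 153 probe sets (1.13%).

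**Figure D1:**
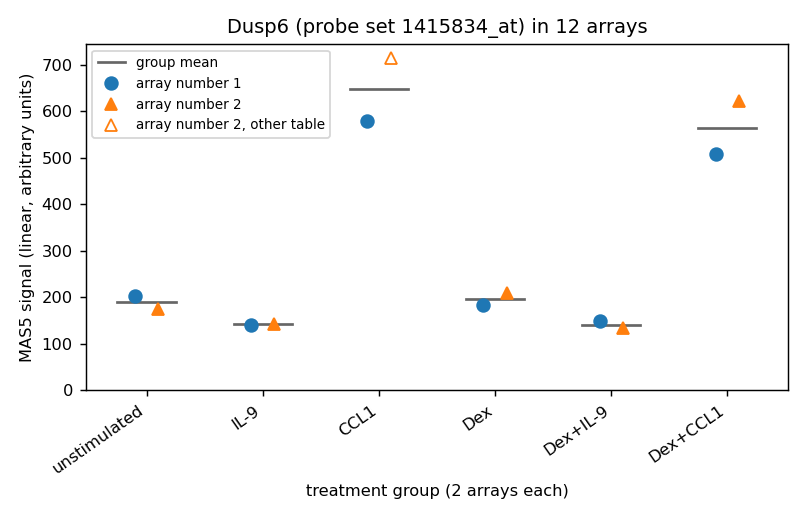
Signal of the Dusp6 probe set 1415834_at in each array (vertical axis, MAS5 signal in linear arbitrary units) by treatment group, with circles for arrays numbered 1, triangles for arrays numbered 2, an open triangle for the array of the other table and lines for group means. The 4 arrays with CCL1 lie between 509 and 716, the 4 with IL-9 between 134 and 148, and the 4 with neither between 175 and 209.

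Ordered by mean signal, the Dusp6 groups were Dex with IL-9 at 141 ± 9.84, IL-9 at 142 ± 1.08, unstimulated at 189 ± 20.5, Dex at 196 ± 17.9, Dex with CCL1 at 565 ± 79.6 and CCL1 at 647 ± 97.3 (SD, n = 2 each). The CCL1 mean spans both tables, which were made separately. Neighbours within each of the 3 pairs (the IL-9 groups, the groups with neither factor, the CCL1 groups) differed by less than the larger of their SDs. The steps between the pairs were larger than the SDs.

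Differences were taken as log2(signal + 16), a scale on which folds of low signals are understated. Comparing arrays of the same number, CCL1 against its control gave differences for Dusp6 of 1.44 and 1.94 without Dex (the second from the array of the other table) and 1.40 and 1.51 with Dex. All 4 differences were positive. In limma, the CCL1 effect on Dusp6, averaged over cells with and without Dex, was a rise of 1.50 (SE 0.13, 95% interval 1.21 to 1.78, adjusted p = 0.00141), a 2.82-fold rise on this scale. This was the smallest p of 13575 tested probe sets and the only call among them (0.00737%), while 760 had an unadjusted p under 0.05. Fits without Dex 1 rest on Dex 2 as the only array of Dex alone, and Dex 2 stood apart in some genes. The highest signal among the T lineage markers was 1525 there and 2213 to 3222 in the other arrays. The kinase gene Rps6ka3 was at 120 in Dex 2 and at 330 in Dex 1. Calls gained without Dex 1, here and below, cannot be told apart from what is particular to Dex 2. The transcript was measured in whole cultures, so more responding cells and more RNA per cell cannot be told apart.

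Within Dex, CCL1 raised Dusp6 by 1.45 (SE 0.16, limma adjusted p = 0.0222), again the only call among the 13575 (0.00737%), against 528 calls without Dex 1. This call was lost in 8 of the 11 fits that each left out 1 array, namely unstimulated 1 (adjusted p = 0.0564) or 2 (0.0547), Dex with CCL1 1 (0.155) or 2 (0.847), IL-9 1 (0.0793) or 2 (0.0798), and the combination of Dex and IL-9 1 (0.0814) or 2 (0.0807). Without Dex the difference was 1.54 (SE 0.20), also the smallest p, but did not pass (limma adjusted p = 0.0932). No probe set was called there (0%), although 446 had an unadjusted p under 0.05. With the array CCL1 2 added the same comparison gave 1.69 and passed (limma adjusted p = 0.00260), and it also passed without Dex 1 (adjusted p = 0.0301) or Dex 2 (0.0321). The difference between the CCL1 effects with and without Dex was -0.09 (95% interval -0.65 to 0.47, limma adjusted p = 0.997), an interval that leaves room for a change of the effect in either direction.

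The array numbers were compared because the numbers 1 without Dex carried the level of glucocorticoid targets seen with Dex. In arrays numbered 1 alone, CCL1 raised Dusp6 by 1.42 (limma adjusted p = 0.000173). In arrays numbered 2 alone, where the glucocorticoid targets differed between the arrays labelled with and without Dex, the difference was 1.72 and just missed the threshold (limma adjusted p = 0.0556). This fit includes CCL1 2, so array number, array type and table cannot be told apart in it. Dex alone against unstimulated gave -0.14 in number 1 and 0.24 in number 2 for Dusp6, and 0.05 over both (95% interval -0.31 to 0.40, limma adjusted p = 0.996). No probe set was called for Dex (0%), with 400 at an unadjusted p under 0.05 in limma. Without Dex 1 limma called 529 probe sets for Dex, no member among them. Ccr8, the receptor of CCL1, had signals of 590, 553 and 623 in CCL1 1 and in the arrays of Dex with CCL1, and 243 in CCL1 2. In unstimulated 1 and 2 Ccr8 was at 405 and 159. Dusp6 was at 578, 509 and 622 in CCL1 1 and the arrays of Dex with CCL1, and at 716 in CCL1 2, of another array type and table. A link of Dusp6 to the Ccr8 level was not tested.

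IL-9 gave the opposite sign for Dusp6. The differences were -0.48 and -0.27 without Dex and -0.28 and -0.58 with Dex (numbers 1 and 2), negative in 4 of 4. The average was -0.40 (SE 0.11, 95% interval -0.65 to -0.15), with an unadjusted p of 0.00463, and did not pass after adjustment over all probe sets (limma adjusted p = 0.337). No member was called for IL-9, averaged (0.0958% of all probe sets called), without Dex (0.0221%) or within Dex (0.0221%). Those percentages are 13, 3 and 3 probe sets, and without Dex 1 the calls were 358 on average and 668 within Dex. The interaction of IL-9 with Dex for Dusp6 was -0.06 (95% interval -0.56 to 0.45, limma adjusted p = 1.00).

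CCL1 and IL-9 share their control arrays, so the 2 factors were also compared directly. Dusp6 was higher with CCL1 than with IL-9 by 1.92 and 2.21 without Dex and by 1.68 and 2.09 with Dex. The average was 1.90 (SE 0.13, 95% interval 1.62 to 2.18, limma adjusted p = 3.88e-05), a 3.73-fold difference and the smallest p but 1 of 13575, of which 32 were called (0.236%). Within Dex the difference was 1.88 (limma adjusted p = 0.00113), with 13 called (0.0958%). Both Dusp6 calls held in every alternative setting and without any 1 of the arrays that could be left out, with adjusted p from 3.70e-06 to 0.0355. No other member was called.

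**Figure D2:**
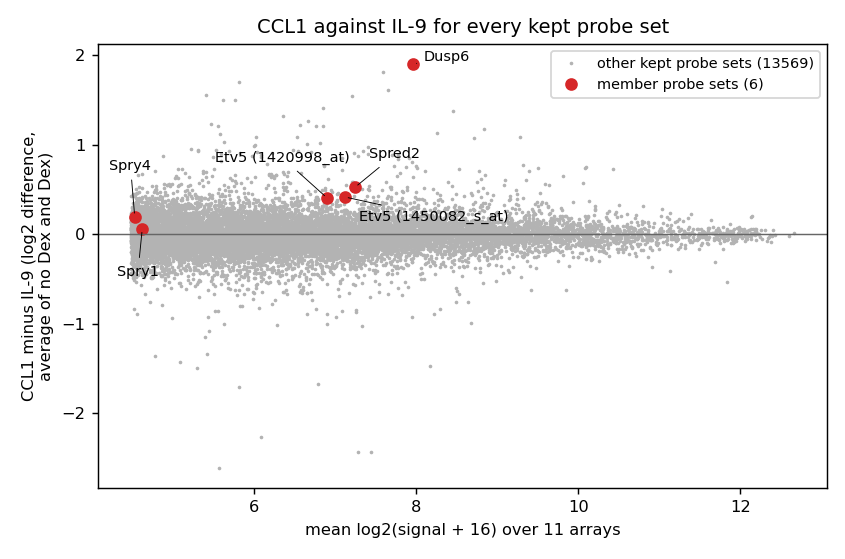
CCL1 minus IL-9, averaged over the Dex conditions (vertical axis, difference in log2(signal + 16)), against the mean log2(signal + 16) over 11 arrays (horizontal axis) for all 13575 kept probe sets, grey, with the 6 member probe sets in red. Dusp6 lies at 1.90, Spred2 at 0.52, the Etv5 probe sets at 0.40 and 0.41, and Spry4 and Spry1 at 0.19 and 0.06.

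The filter on low values kept 6 of the 14 member probe sets, which measure 5 genes: Dusp6, Spry1, Spry4, Spred2 and Etv5. Kept probe sets lay above the 40th percentile of mean log2 values, at a signal of 6.32. The 8 that did not pass were both of Spry2, 1 of 2 of Spry4, all 3 of Spred1, 1 of 2 of Spred2 and the only one of Etv4. Their signals never exceeded 18.2, and without the filter none was called in any comparison (smallest unadjusted p = 0.0397 in limma). At such signals a change could not be seen, and this says nothing of its absence.

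Sprouty proteins restrain Ras and Raf activation downstream of receptor tyrosine kinases. Spry1 (1415874_at) had signals of 6.98 and 9.39 in unstimulated cells, 9.84 and 8.81 with CCL1, 7.77 and 22.5 with IL-9, 13.5 and 5.38 with Dex, 8.15 and 9.03 with Dex and CCL1, and 5.58 and 1.37 with Dex and IL-9. All arrays but IL-9 2 were below the array medians, and the groups overlapped. The CCL1 average was 0.03 (95% interval -0.41 to 0.48, limma adjusted p = 0.987) and the IL-9 average -0.03 (-0.42 to 0.37, limma adjusted p = 0.985). Both averages changed sign in other settings.

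Spry4 (1422021_at) had signals of 8.78 and 6.27 in unstimulated cells, 16.3 and 5.48 with CCL1 and 17.1 and 7.46 with IL-9. With Dex it was at 1.22 and 4.24, with Dex and CCL1 at 8.05 and 5.09, and with Dex and IL-9 at 5.01 and 2.91. The highest values were in CCL1 1 and IL-9 1, and in each of the groups without Dex the array numbered 1 exceeded that numbered 2. The 3 arrays numbered 1 without Dex lay above the 3 numbered 2 of both tables, as in 911 of 13575 probe sets (6.71%). The CCL1 average was 0.36 (95% interval -0.01 to 0.74, limma adjusted p = 0.892) and the IL-9 average 0.17 (-0.16 to 0.50, adjusted p = 0.804). Most of these signals were below the array medians, where a change could not be seen. The other Spry4 probe set, 1422020_at, which did not pass the filter, gave averages of 0.14 for CCL1 and -0.18 for IL-9. Within Dex it gave -0.31 and -0.46.

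Spred2, a membrane-bound relative of the Sprouty proteins that blocks activation of Raf, was measured clearly by 1434403_at. Its signals were 134 and 213 in unstimulated cells, 170 and 154 with CCL1, and 87.0 and 118 with IL-9. With Dex they were 109 and 158, with Dex and CCL1 138 and 174, and with Dex and IL-9 103 and 130. The 4 arrays with CCL1 lay above the 4 with IL-9, as in 347 probe sets (2.56%), while both overlapped the arrays with neither factor.

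IL-9 gave Spred2 differences of -0.54 and -0.78 without Dex and -0.07 and -0.25 with Dex, negative in 4 of 4, and CCL1 gave 0.31, -0.43, 0.31 and 0.13 in the same order. The averages were -0.41 for IL-9 (SE 0.18, unadjusted p = 0.0393, limma adjusted p = 0.566) and 0.11 for CCL1 (95% interval -0.32 to 0.54, limma adjusted p = 0.968). CCL1 minus IL-9 was 0.52 for Spred2 (SE 0.20, unadjusted p = 0.0218), which did not pass (limma adjusted p = 0.864). Spred2 was lower in arrays numbered 1 than in those numbered 2 by 0.43 without Dex and by 0.36 with Dex, a difference of the same size as those between treatments, and neither passed (limma adjusted p = 0.411 and 0.258). In the 4 control and 4 IL-9 arrays the number 2 was the higher of each pair.

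Etv5 was measured by 2 probe sets. The first, 1420998_at, had signals of 129 and 57.8 in unstimulated cells, 110 and 104 with CCL1, 87.9 and 53.3 with IL-9, 122 and 145 with Dex, 149 and 114 with Dex and CCL1, and 111 and 106 with Dex and IL-9. The second, 1450082_s_at, gave 122 and 85.6, 153 and 111, 103 and 83.9, 118 and 163, 155 and 141, and 137 and 117 in the same order of groups. In both, the lowest values were in unstimulated 2 and IL-9 2, and their values had a Pearson r of 0.90 over 11 arrays.

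For CCL1 the probe sets gave averages of 0.13 (95% interval -0.38 to 0.64) and 0.29 (-0.07 to 0.66), and for IL-9 -0.27 (-0.73 to 0.19) and -0.12 (-0.44 to 0.20), with limma adjusted p from 0.766 to 0.968. CCL1 minus IL-9 was positive in 4 of 4 number pairs for both, with averages of 0.40 (SE 0.23) and 0.41 (SE 0.17, unadjusted p = 0.0287), and neither passed (limma adjusted p = 0.999 and 0.957). The 3 arrays with CCL1 of the larger table exceeded the 4 with IL-9 in the second probe set, as in 582 probe sets (4.29%). With the array CCL1 2 added the groups overlapped.

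**Figure D3:**
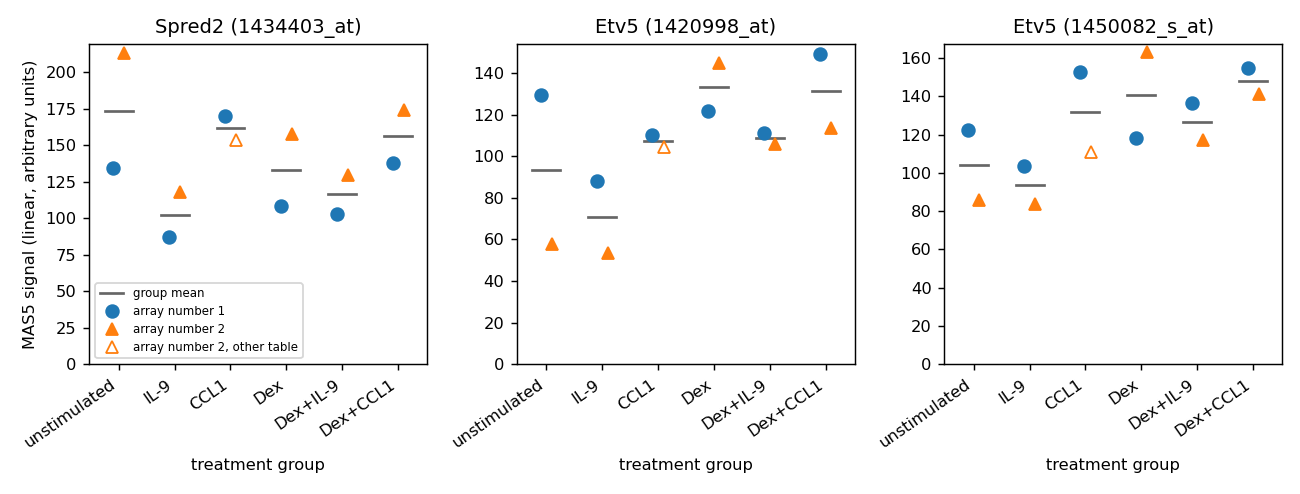
Signals of the Spred2 probe set and both Etv5 probe sets in each array (vertical axis, MAS5 signal in linear arbitrary units) by treatment group, with circles for number 1, triangles for number 2, an open triangle for the array of the other table and lines for group means. Spred2 ranges from 87.0 to 213 and is higher in number 2 in each pair but CCL1, and Etv5 is lowest in unstimulated 2 and IL-9 2.

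Etv5 was the only member with a call between array numbers in the groups labelled without Dex. A model with a level for each Dex condition and number, and 1 term each for IL-9 and CCL1, gave 0.76 for number 1 minus number 2 without Dex in 1420998_at (SE 0.16, limma adjusted p = 0.0479). It was the only member call among 108 calls (0.796% of 13575). With Dex, where 3 probe sets were called (0.0221%), the same difference was 0.06. The difference between both did not pass for Etv5 (0.70, SE 0.21, limma adjusted p = 0.334), while 28 probe sets were called (0.206%). The second probe set gave 0.41 without Dex (limma adjusted p = 0.424), and both Etv5 probe sets and the Spry4 one had the 3 arrays numbered 1 above the 2 numbered 2 of the larger table, as did 10% of all probe sets. The call held in the fit without Dex 2 (adjusted p = 0.0166) and was lost in the 10 fits without any other 1 of the 11 arrays (0.0586 to 0.462). It was also lost with the array CCL1 2 added (0.54, adjusted p = 0.168). The level of 7 of 9 glucocorticoid targets was called higher in the same contrast (median 1.11), and its part in the Etv5 difference was not tested. These were Gpr65, a proton-sensing receptor (1.95, limma adjusted p = 0.00123), Dusp1 (1.75, 5.75e-05), Tsc22d3, the leucine zipper protein GILZ (1.71, 5.75e-05), Bcl2l11, the death-promoting BIM (1.57, 0.000571), the chaperone Fkbp5 (1.11, 0.00162), the NF-kappaB inhibitor Nfkbia (0.98, 0.00162) and Ddit4, an inhibitor of mTOR signalling (0.80, 0.0355). The kinase gene Sgk1 of the same list was not called there (-0.08) but was called for IL-9, with signals of 226 to 311 in the 4 arrays with IL-9 and 33.0 to 70.7 in the others (2.23, SE 0.14, limma adjusted p = 1.61e-05). For Dusp6 this contrast was 0.10 (95% interval -0.18 to 0.38, limma adjusted p = 0.883).

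**Figure D4:**
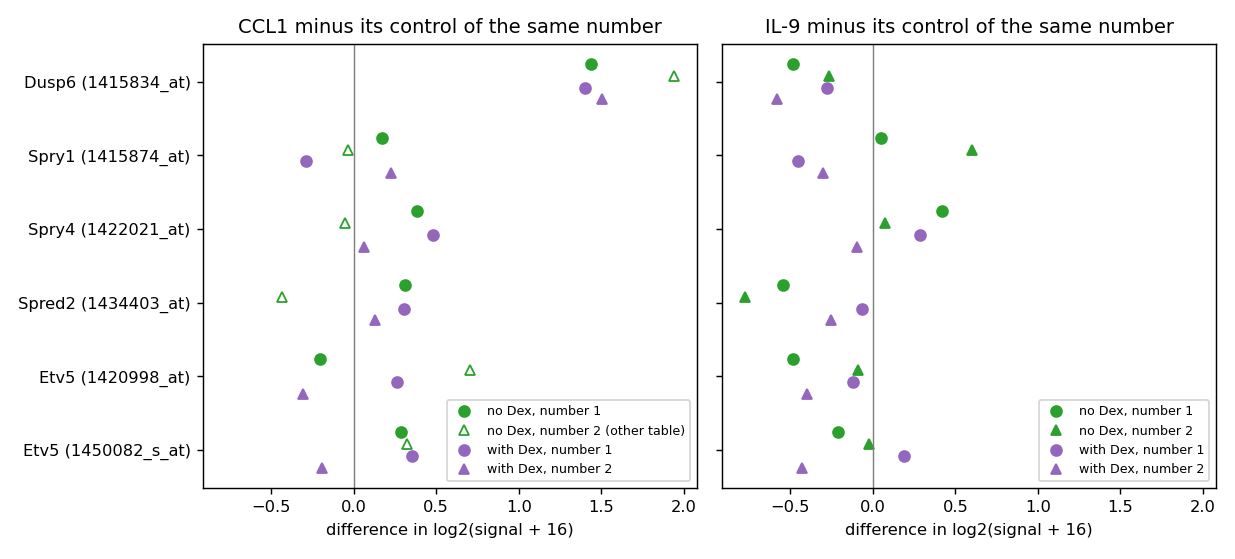
Difference in log2(signal + 16) (horizontal axis) between an array with CCL1 (left) or IL-9 (right) and its control of the same number, for the 6 kept member probe sets, with green for no Dex, purple for Dex, circles for number 1, triangles for number 2 and open triangles for the array of the other table. The Dusp6 points for CCL1 lie between 1.40 and 1.94 and those for IL-9 between -0.58 and -0.27. The CCL1 points of every other probe set shown lie on both sides of 0.

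Taken over the 5 measured genes, the probe set of the highest mean for each, the CCL1 averages had a median of 0.29 with 5 of 5 positive, and the IL-9 averages a median of -0.12 with 1 of 5 positive. Over all kept probe sets the medians were -0.02 and -0.01, with 46.3% and 47.3% positive. Both medians of the 5 genes are the values of the Etv5 probe set 1450082_s_at, and the other Etv5 probe set gave 0.13 and -0.27. The CCL1 value of 1450082_s_at contains part of its difference between array numbers without Dex (0.41). The 5 genes include Spry1 (signals 1.37 to 22.5) and Spry4 (1.22 to 17.1), mostly below the array medians, where a change could not be seen. Their signs carry little weight, among them 0.03 for Spry1 with CCL1 and the only positive IL-9 value, 0.17 for Spry4. Spry4 passed the filter narrowly, at percentile 41.3 of mean values. That mean includes the treated arrays, and the highest Spry4 signals were in CCL1 1 (16.3) and IL-9 1 (17.1). Passing the filter thus favoured positive Spry4 values for both factors. The counts of positive genes include Spry4 and are not independent of this selection. The list was chosen with earlier results known and includes Dusp6. A shared response of the 5 genes was not tested. Of the 5 genes 1 was called for CCL1 (Dusp6) and 0 for IL-9. The Pearson r of Dusp6 with the other member probe sets over the 11 arrays ran from 0.06 (Spry1) to 0.62 (Etv5, 1450082_s_at).

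The rest of the pathway was read from 3 lists. Of the ERK cascade itself, from Ras exchange factors to the kinases and the ETS factors they phosphorylate, 24 of 37 genes were measured and 0 were called for CCL1 or IL-9 in limma (medians -0.03 and -0.02, 11 and 10 of 24 positive). Rasa2, a GTPase-activating protein that switches Ras off, had the largest CCL1 value at 0.80 (adjusted p = 0.532), with 0.39 for IL-9. Its signals were 213 and 114 with Dex, and 214 and 283 with Dex and CCL1, so the number 1 pair did not differ. They were 171 and 109 in unstimulated cells and 291 and 135 with CCL1. Rasa2 was higher in number 1 without Dex by 0.58 (limma adjusted p = 0.377). Sos1, a Ras exchange factor, was at -0.31 for CCL1 and Elk4, an ETS factor activated by ERK, at 0.26. For IL-9, Ksr1, a scaffold of the cascade, was at 0.39 and the ERK-activated kinase Rps6ka3 at 0.33, the latter with 120 in Dex 2 against 238 to 396 elsewhere.

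Of 14 other dual-specificity phosphatases 10 were measured and 0 were called for either factor in limma (medians -0.04 for CCL1 and -0.06 for IL-9). Dusp10, which acts on the stress kinases JNK and p38, had signals of 55.8 and 37.0 with IL-9 and 40.8 and 48.5 with Dex and IL-9. It was at 105 and 77.3 in unstimulated cells, 114 and 98.0 with Dex, 77.3 and 54.1 with CCL1, and 79.1 and 68.2 with Dex and CCL1. The arrays with IL-9 lay below those with neither factor, and the difference of -0.90 (SE 0.15) missed the threshold (limma adjusted p = 0.0698). It passed without Dex 1 (adjusted p = 0.0240) and in 4 of 13 other settings, with the lowest adjusted p in arrays numbered 1 alone (0.00738). Dusp16 and Dusp12 were at 0.31 and 0.30 for CCL1 and at 0.41 and 0.36 for IL-9.

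Dusp1, a nuclear phosphatase that is also a glucocorticoid target, was not called for CCL1 or IL-9 (averages -0.16 and -0.06, limma adjusted p = 0.975 and 0.983). Its signals were 199 and 203 with Dex and 128 and 108 with Dex and CCL1, a difference of -0.70 (limma adjusted p = 0.800). Without Dex the CCL1 value was 0.39, from CCL1 1 against both unstimulated arrays. Dusp1 followed the array number without Dex, with 228, 243 and 166 in number 1 and 62.9, 59.1 and 65.4 in number 2 (1.75, SE 0.13, limma adjusted p = 5.75e-05).

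Of 28 other genes induced by ERK signalling 13 were measured and 0 were called in limma (medians 0.18 for CCL1 and 0.12 for IL-9, 10 of 13 positive for each). Nr4a1, an early nuclear receptor gene, had signals of 87.1 in CCL1 1 and 84.7 in both arrays of Dex with CCL1, against 7.21 to 38.6 in the arrays without CCL1. In CCL1 2 it was at 8.49, beside 7.21 in unstimulated 2. Its CCL1 average was 1.40 (SE 0.29, limma adjusted p = 0.361), 0.88 with CCL1 2 added, 1.56 without Dex 1 and 0.96 in arrays numbered 1 alone. Without Dex its CCL1 value was 1.60. Number 1 minus number 2 without Dex was 0.88 for Nr4a1 (limma adjusted p = 0.0689), and the CCL1 average contains part of it. In CCL1 2 Dusp6 was thus high and Nr4a1 low, and in that array the array number, the array type and the table cannot be told apart. Plaur, the urokinase receptor, was at 0.89 for CCL1 (limma adjusted p = 0.849) and higher in number 1 without Dex (1.46, adjusted p = 0.00535). Its CCL1 value within Dex was 0.12, and its signals were 102 and 26.9 in unstimulated cells and 210 and 35.3 with CCL1. Rgs2, a regulator of G protein signalling, was at 0.34 for CCL1 and -0.78 for IL-9, and higher in number 1 without Dex by 1.03 (limma adjusted p = 0.165). The Rgs2 signal was 69.8 in CCL1 1 beside 68.8 in unstimulated 1, and its CCL1 value within Dex was -0.16.

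Fos, which encodes an AP-1 subunit, had signals of 41.1 and 30.3 with IL-9 and 38.7 and 30.3 with Dex and IL-9, against 1.02 to 15.2 in the other 8 arrays. The IL-9 difference was 1.13 (SE 0.19, limma adjusted p = 0.0767) and passed without unstimulated 2 (adjusted p = 0.0189) or Dex 1 (0.0274). It also passed in 4 of 12 other settings (lowest adjusted p = 0.00217, arrays numbered 1 alone), over which the difference ran from 0.47 to 2.39. Junb, another AP-1 subunit, was at 0.82 for IL-9 (limma adjusted p = 0.200). For Fos the CCL1 value was 0.19 and for Junb 0.02. In the same arrays with IL-9 in which Fos and Junb were at their highest, Dusp6 was at its lowest.

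**Figure D5:**
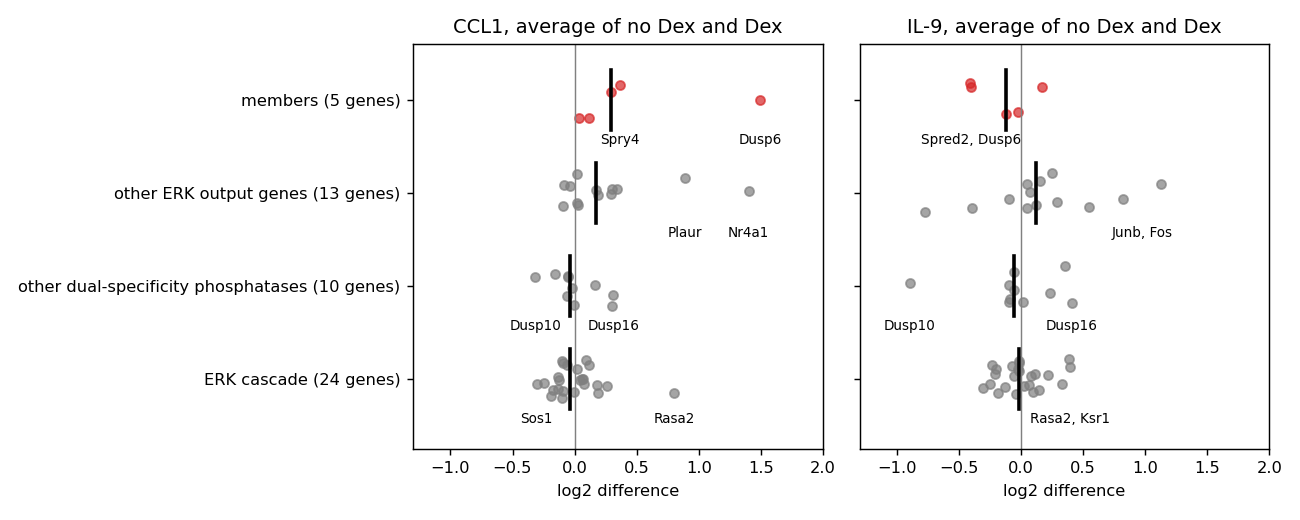
Log2 difference (horizontal axis) for CCL1 (left) and IL-9 (right), averaged over the Dex conditions, for each measured gene of the members and of the 3 other lists, 1 point per gene and a bar at the median, with the 2 largest differences of each list named under their points (vertical scatter has no meaning). Dusp6 at 1.50 and Nr4a1 at 1.40 lie farthest right for CCL1, and the CCL1 medians of the lists lie between -0.04 and 0.29.

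The receptors of the ligands were measured too. Ccr8 was at 0.80 for CCL1 and -0.57 for IL-9, Il9r at -0.41 and -0.32, and Nr3c1, the glucocorticoid receptor, at 0.37 and 0.08, with none past the threshold (limma adjusted p = 0.606 to 0.961). The Il9r signals were 1.67 to 18.6, near or below the array medians, where a change could not be seen. Ccr8 was higher in arrays numbered 1 without Dex by 1.46 (limma adjusted p = 0.000128). Its CCL1 average contains part of that difference, and so does the spread used to test its averages. Its signals were 405 and 159 in unstimulated cells, 590 and 243 with CCL1, and 306 and 86.9 with IL-9. They were 400 and 456 with Dex, 553 and 623 with Dex and CCL1, and 298 and 271 with Dex and IL-9. In each same-numbered pair Ccr8 was thus higher with CCL1, and lower with IL-9, than in the control.

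The probe sets most like Dusp6 were found by Pearson r of log2 values over the 11 arrays, which fall into 3 arrays with CCL1 and 8 without, so r mostly follows that split. Of 12467 named probe sets 22 had r of at least 0.9 (0.176%). The highest were Ppp1r2, an inhibitor of protein phosphatase 1 (0.95), Tmsb4x, the actin-binding thymosin beta 4 (0.95), both probe sets of Coro1a, an actin-binding protein of leukocytes (0.95 and 0.95), and Prkd2, protein kinase D2 (0.94). With CCL1 2 added, r was 0.60 for Ppp1r2, 0.85 for Prkd2 and 0.92 to 0.94 for the others. The lowest were Ptger4, a prostaglandin E2 receptor (-0.90), and Gadd45b, a stress-induced gene (-0.89). With CCL1 2 added these were -0.89 and -0.72. Gadd45b was at 0.827 to 9.89 in the 3 arrays with CCL1, below the array medians, at 9.03 to 21.1 in the 4 with neither factor, and at 22.9 in CCL1 2. Ptger4 had signals of 145 to 162 in the 3 arrays with CCL1, 230 to 272 in the 4 with neither factor and 423 to 477 in the 4 with IL-9, and 174 in CCL1 2, which is the order of Dusp6 turned round. Coro1a (1455269_a_at) had 453 to 522, 316 to 368 and 266 to 293 in the same groups, and 426 in CCL1 2.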

How the data were processed

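Deposited values were MAS5 signal intensities, per the submitters' processing notes, in 1 table of 11 arrays and 1 of a single array. The mean signal of each array, trimmed by 2% at each end, was 100.0 to 100.1, so a common shift of all genes could not be seen. The MAS5 version is not given in the sources used here. After removal of 64 control probe sets, 22626 were transformed as log2(signal + 16), and 13575 above the 40th percentile were tested. Of all probe sets 20393 had 1 symbol, 691 several and 1606 none. Of these, 20364 matched the GRCm38.p6 gene table, which changed 0 symbols. The test was limma 3.58.1 (R 4.3.3) on the larger table, with a mean for each group, an intensity trend, 5 residual and 6.47 prior degrees of freedom, and Benjamini-Hochberg adjustment with a threshold of 0.05. Intervals are at 95%. CCL1 without Dex, on 1 array, takes its spread from the other groups.

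The members and lists were chosen with earlier results of these data known. From each list the genes past the threshold and the 3 with the largest difference for each factor were named, with 3 receptors. The number of arrays limits the precision. Tested on simulated data with 13575 probe sets, the fit for CCL1 without Dex recovered 32% and 81% of true differences of 1 and 2 log2 units, and the fit within Dex 55% and 97%. The simulation changed many probe sets at once, which eases the adjusted threshold, and its noise was independent between arrays. Recovery of a lone change would be lower. Fits of the arrays of 1 number alone were added after seeing the data, and those of number 2 include the array of the other table.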

Additional observations from a re-analysis of the deposited data

Results flagged for a closer look

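Spry1 moved in opposite directions with IL-9 in the Dex conditions. The differences were 0.048 and 0.60 without Dex and -0.45 and -0.30 with Dex (numbers 1 and 2). The interaction was -0.70 (unadjusted p = 0.0787, limma adjusted p = 1.00), and all signals were at or under 22.5. Spry4 (1422021_at) had CCL1 minus IL-9 differences of -0.037 and -0.13 without Dex and 0.20 and 0.16 with Dex, and this difference between conditions was not tested. Dusp6 had a signal of 716 in the array CCL1 2, which no test of the 11 arrays used, 1.84 log2 above the mean of the unstimulated arrays.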

How the results depend on the processing

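Dusp6 kept its direction with CCL1 under each alternative. Its CCL1 difference without Dex passed with a pseudocount of 64 (1.35, limma adjusted p = 0.0492), after adding CCL1 2 (1.69, adjusted p = 0.00260) and with 1 probe set per gene (1.54, adjusted p = 0.0410), so the member count was 1 in these settings against 0. Within Dex it missed the threshold when no intensity trend was fitted (1.45, adjusted p = 0.0688), with a member count of 0 against 1, and the average call in arrays numbered 2 alone (1.72, adjusted p = 0.0556), with a count of 0 against 1. The Etv5 call between array numbers was lost (count 0 against 1) with a pseudocount of 64, no filter, a 60th percentile filter, no trend, CCL1 2 added and 1 probe set per gene. With each array left out, Dusp6 ran from 1.44 to 1.64 for CCL1 without Dex, 1.31 to 1.59 within Dex, -0.23 to 0.052 for the CCL1 interaction, -0.16 to 0.047 for the IL-9 interaction and -0.053 to 0.15 for Dex, and the member counts within Dex, without Dex and between numbers from 0 to 1. CCL1 without Dex could not be fitted without CCL1 1. Values near 0 changed sign. Leaving out arrays, averages ran from -0.11 to 0.37 (Etv5 1420998_at, CCL1), -0.040 to 0.26 (Spred2, CCL1), -0.083 to 0.15 (Spry1, CCL1), -0.20 to 0.15 (Spry1, IL-9), -0.12 to 0.23 (Spry1, CCL1 minus IL-9), -0.24 to 0.41 (Nr3c1, IL-9), -0.074 to 0.76 (Rgs2, CCL1) and -0.0074 to 0.67 (Rps6ka3, IL-9). In arrays numbered 2 alone, which include CCL1 2 of the other table, Spred2 was at -0.15 and Dusp16 at -0.040 for CCL1, Dusp16 at -0.011 and Spry1 at 0.15 for IL-9, and Spry1 at -0.054 for CCL1 minus IL-9. In arrays numbered 1 alone Spry1 was at -0.060 and Rgs2 at -0.070 for CCL1, and Nr3c1 at -0.20 for IL-9. Spry1 with IL-9 was 0.0030 with a pseudocount of 64, 0.021 with quantile normalization and 0.012 with median centring. Adding CCL1 2 gave -0.016 for Rgs2 with CCL1 and -0.037 for Dusp6 between numbers. The cause was not tested.

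Same-numbered arrays deviated together in 5 of 10 pairs of groups (correlations 0.14 to 0.31, among them the 3 pairs of groups with Dex) and not clearly in the other 5 (-0.01 to 0.09), so the numbers were not taken as pairing the arrays. With the number as a replicate block, CCL1 raised Dusp6 by 1.50 on average (adjusted p = 0.00188) and by 1.45 within Dex (0.0235). No member call changed, and called probe sets for CCL1 minus IL-9 rose from 32 to 41, or 55 with a block within Dex conditions, where Etv5 (1420998_at) was at -0.066 for CCL1. For CCL1 minus IL-9 the count of calls over all probe sets was 32, against 18 without the filter, 19 with a pseudocount of 1, 172 in arrays numbered 1 alone and 9 in arrays numbered 2 alone. For the averages of CCL1 and IL-9, 1 and 13 were called, against 110 and 226 in arrays numbered 1 alone, 0 and 2 in arrays numbered 2 alone, and 2 and 49 with the block within Dex conditions. Within Dex that block gave 3 calls for CCL1, 8 for IL-9 and 34 for CCL1 minus IL-9, against 1, 3 and 13. Without Dex 1 the calls were 529 for Dex (against 0), 66 and 358 for the averages of CCL1 and IL-9, 528 and 668 for them within Dex, and 101 and 271 for the interactions (against 0). Calls for CCL1 minus IL-9 were 14 to 19 without 1 array of IL-9, of Dex with IL-9 or of Dex with CCL1, and 51 and 52 without Dex 1 and Dex 2. Within Dex they were 4 to 7 without 1 array of either combination and 20 without Dex 1 or Dex 2. The average IL-9 calls were 5 and 8 without Dex with IL-9 1 and 2, 8 without unstimulated 1 and 21 without Dex 2, and the average CCL1 calls 3 without unstimulated 2. With CCL1 2 added 3 were called for CCL1. Between numbers without Dex 108 were called, against 65 without the filter, 199 with CCL1 2 added and 46 to 216 with 1 array left out. The IL-9 difference of Dusp6 was -0.45 to -0.32 over all settings and passed in none. Median centring moved the median CCL1 by Dex interaction of all probe sets from 0.02 to -0.12 and that of Dusp6 to -0.23.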
